A study of Mus musculus with 6 samples.

Results

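Transcripts of the antibody chains and of the J chain were read in injured carotid arteries of mice with and without the transcription factor IRF4. The probe sets were chosen by name: every probe set annotated, alone or among several symbols, to Igkc, Igha, Ighm or Jchain, or to a symbol that starts with Ighv, Ighg, Ighd, Igkv, Igkj, Iglv or Iglc. This gave 27 of the 19324 genes named on the array, measured by 52 of the 45037 probe sets left after the array's controls were set aside, 39 with a single symbol and 13 with several. The genes were singled out with the values of these same 6 arrays known, so levels and differences between genotypes are a description and carry no test of their own.

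Carotid arteries were injured with a wire, which strips the endothelium, and collected 14 days later. One group was wild type (WT) and the other lacked IRF4 globally (IRF4 KO); the sources used here give no strain, age or sex and do not say which part of the gene was deleted. Each of the 3 arrays per genotype held RNA pooled from 3 to 5 vessels, so the spread between arrays is that between pools. Arrays are named by genotype and replicate number. Values are log2 intensities, on which a difference of 1 is a 2-fold difference. A probe set is called dim here where it lay below 3.998, the median of all probe set means, on all 6 arrays.

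An antibody is built from paired heavy and light chains, each with a variable region assembled from gene segments and a constant region. The constant region of the heavy chain sets the class: Ighm encodes that of IgM, Ighg3 that of IgG3 and Igha that of IgA, while Igkc encodes the constant region of the kappa light chain. Naive B cells carry IgM at their surface, and antibody-secreting plasma cells make very large amounts of heavy and light chain mRNA together with the J chain, which links IgM and IgA into polymers. IRF4 is known to be needed for class switching and for the formation of plasma cells.

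Of the 27 genes, 1, Jchain, was matched to an upstream sequence in the RefSeq table used (build GRCm38.p6). It is shown because IRF4 and its relatives recognise DNA with a GAAA core, and Jchain is the member that marks antibody-secreting cells. The stretch is the 250 bases before the gene's start, chr5:88527898-88528147 on the minus strand, printed 5′ to 3′ with each GAAA, or TTTC for GAAA on the opposite strand, in capitals:
Jchain upstream: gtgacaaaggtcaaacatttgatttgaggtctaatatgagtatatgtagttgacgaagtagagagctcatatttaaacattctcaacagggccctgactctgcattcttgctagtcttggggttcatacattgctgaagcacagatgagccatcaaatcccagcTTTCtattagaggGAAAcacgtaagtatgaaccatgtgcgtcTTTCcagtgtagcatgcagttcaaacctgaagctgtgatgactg
It holds 3 such cores, against a median of 2 over the 32851 upstream sequences of the same length in that table, 86.4% of which hold at least 1. The letters of the octamer ATGCAAAT, a motif of immunoglobulin promoters, were not in this window on either strand (1.60% of all windows hold them). Nor was GGAA followed after any 2 bases by GAAA, the composite of an ETS core and an IRF core (2.30%), or GAAA followed after any 2 bases by GAAA, a pair of IRF cores (2.98%). These are matches of letters, not of binding, and the search covers this window alone.

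The kappa light chain showed the largest differences. Its 3 probe sets are each annotated to Igkv6-23, Igkv4-53, Igkv8-30, Igkj1 and Igkc, so constant and variable segments are not read apart, and the ending x_at marks probes that can bind several related transcripts. On 1427660_x_at the WT arrays 1 to 3 read 5.84, 7.24 and 9.49, and the IRF4 KO arrays 1 to 3 read 6.61, 4.02 and 4.58. WT 3 was the highest array and IRF4 KO 2 the lowest, but IRF4 KO 1 lay above WT 1, so the genotypes overlapped. The WT mean was 7.52 ± 1.84 and the IRF4 KO mean 5.07 ± 1.36 (SD, n = 3), a difference of -2.45, with WT 5.46-fold higher.

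On 1452417_x_at the WT arrays read 4.88, 6.73 and 8.63 and the IRF4 KO arrays 5.93, 2.55 and 3.03. The order of the arrays was the same, and IRF4 KO 2 and 3 here lay below 3.998, at the level of dim probe sets. The difference of means was -2.91 (WT 6.75 ± 1.88, IRF4 KO 3.84 ± 1.83, SD, n = 3), and WT was 7.51-fold higher. On 1427455_x_at the WT arrays read 5.25, 5.73 and 8.47 and the IRF4 KO arrays 5.39, 3.99 and 4.22, a difference of -1.95 (6.48 ± 1.73 and 4.53 ± 0.75, SD, n = 3). Ranked by how far the IRF4 KO mean lay below the WT mean, these kappa probe sets were 2, 1 and 6 of all 45037. The genes were chosen with these values known, so the ranks follow from that choice and lend no support. The probe sets also share all their symbols, so their ranks are not separate observations. On these 3 probe sets WT 3 stood 1.90 to 2.74 above the next WT array, and IRF4 KO 1 stood 1.17 to 2.90 above the next IRF4 KO array.

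Igha, the constant region of IgA, read lower in IRF4 KO on each of its 3 probe sets, all of which carry Igha as the single symbol. On 1421653_a_at the WT arrays read 5.38, 6.08 and 8.08 and the IRF4 KO arrays 5.59, 4.54 and 5.51 (means 6.51 ± 1.40 and 5.22 ± 0.58, SD, n = 3, difference -1.30). WT 3 again stood above the other 5 arrays, and WT 1 lay below IRF4 KO 1 and 3. On 1425763_x_at the WT arrays read 4.96, 6.17 and 8.16 and the IRF4 KO arrays 5.81, 5.24 and 4.89 (difference -1.12). On 1429381_x_at the WT arrays read 5.63, 5.57 and 7.04 and the IRF4 KO arrays 5.51, 5.42 and 5.39, a difference of -0.64. That last probe set was the 1 of the 3 on which every IRF4 KO array lay below every WT array, although WT 1, WT 2 and the 3 IRF4 KO arrays were within 0.25 of each other.

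Jchain, on its single probe set 1424305_at, read 2.88, 3.45 and 5.45 in WT and 2.91, 2.31 and 2.55 in IRF4 KO. WT 3 was the only array above 3.998, so the transcript was near the level of dim probe sets in the other 5, where RMA compresses differences. The means were 3.93 ± 1.35 and 2.59 ± 0.30 (SD, n = 3), a difference of -1.33. IRF4 KO 1 lay just above WT 1.

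**Figure D1:**
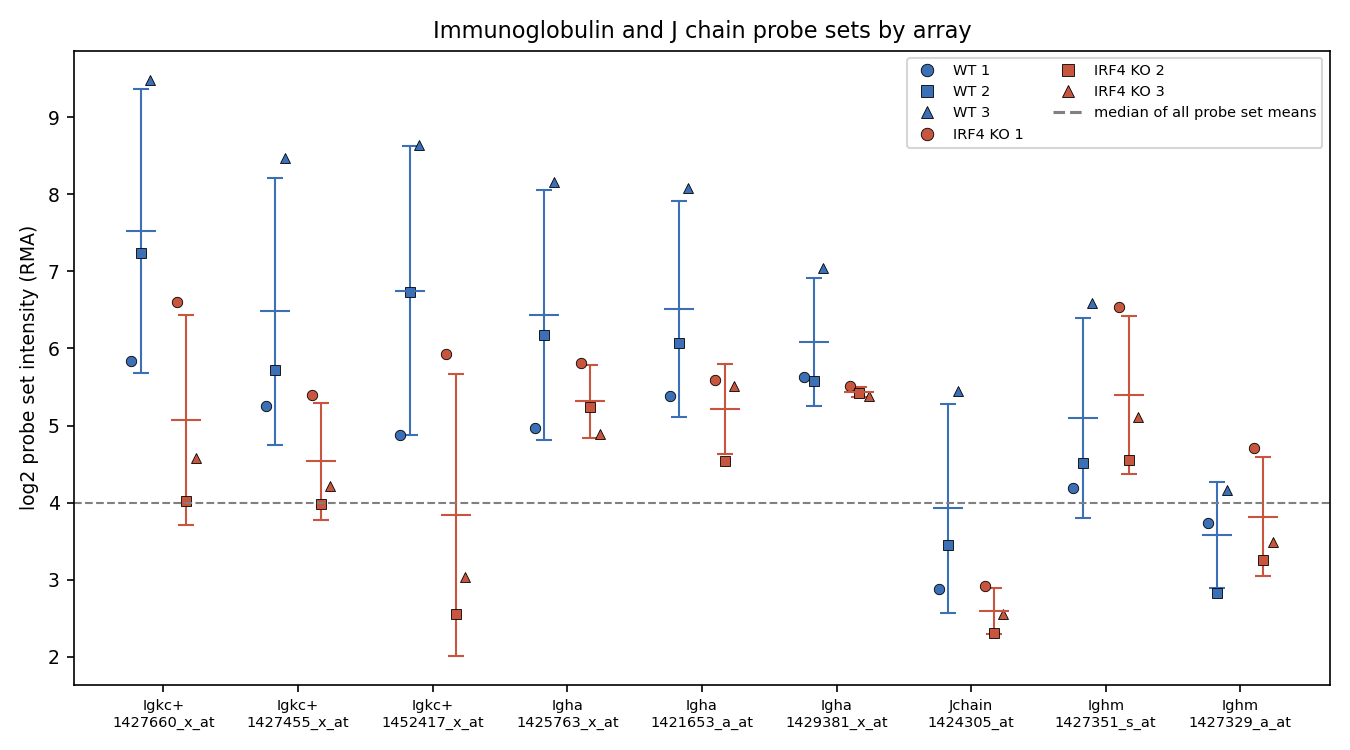
Log2 intensity of 9 immunoglobulin and J chain probe sets (x axis; Igkc+ stands for Igkc with 4 kappa V and J symbols) on each array, WT in blue and IRF4 KO in red, with the marker shape giving the replicate number. Bars are the mean ± SD of 3 arrays and the dashed line is the median of all probe set means, 3.998; WT 3 is the highest array on the kappa, Igha and Jchain probe sets, from 5.45 to 9.49.

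These 7 probe sets shared WT 3 as the highest array but not the order of the others. Of the 11 single-symbol Ighm probe sets, 6 were dim and 5 were not. Those 5 had means 0.11 to 0.30 higher in IRF4 KO, and WT 3 was the highest array on 1427351_s_at alone among them. On 1427351_s_at the WT arrays read 4.19, 4.52 and 6.59 and the IRF4 KO arrays 6.54, 4.56 and 5.11 (means 5.10 ± 1.30 and 5.40 ± 1.02, SD, n = 3, difference 0.30). Here WT 3 and IRF4 KO 1 were both high and within 0.045 of each other, and the genotypes overlapped.

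The Ighm probe set 1427329_a_at had the same high arrays, WT 3 at 4.17 and IRF4 KO 1 at 4.71, the other 4 reading 2.83 to 3.74. The remaining 3 Ighm probe sets that were not dim varied less. On 1427870_x_at the WT arrays read 5.79, 5.70 and 5.61 and the IRF4 KO arrays 5.62, 5.81 and 6.18. On 1452535_at they read 4.50, 4.71 and 4.19, and 4.11, 4.65 and 4.98. On 1425247_a_at they read 3.43, 3.61 and 3.59, and 3.56, 3.73 and 4.07. On each of these 3, IRF4 KO 3 was the highest array, and neither WT 3 nor IRF4 KO 1 stood out upward.

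Among the 6 dim Ighm probe sets, 1425385_a_at read 2.78, 3.40 and 3.08 in WT and 2.63, 2.62 and 2.75 in IRF4 KO, with no overlap (difference -0.42). Of the other 5 dim ones, 3 had lower and 2 higher means in IRF4 KO. Another 4 probe sets name Ighm beside a heavy chain V segment, 3 of them with Ighg3 as well; all were dim on all 6 arrays. Values of dim probe sets sit near background, and their small differences are listed for completeness.

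The remaining members were mostly dim. Ighg3, the constant region of IgG3, was measured by 4 probe sets of its own, and the 1 that was not dim, 1427503_at, read 4.15, 4.26 and 4.10 in WT and 4.10, 4.02 and 4.23 in IRF4 KO (difference -0.056). Ighv14-2, a heavy chain V segment alone on 1455530_at, was dim (difference 0.091). Of the 21 probe sets for kappa V segments without Igkc, 20 were dim. The exception was 1427855_at for Igkv19-93, with 5.69, 5.39 and 5.19 in WT and 5.23, 5.59 and 6.51 in IRF4 KO, where IRF4 KO 3 was the highest array and WT 3 the lowest (difference 0.36). This order of arrays is not that of the probe sets that include Igkc.

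Among the dim kappa V probe sets, 1452536_s_at for Igkv9-120 differed by 0.26 and 1427859_at for Igkv6-15 by -0.076. A further dim probe set was 1452463_x_at for Igkv8-30. It read 2.40, 3.70 and 3.88 in WT and 3.23, 2.87 and 2.90 in IRF4 KO (difference -0.32), so WT 1 was the lowest array and WT 3 the highest. Probe sets 1451965_at and 1427576_at, each annotated to Igkv6-14, Igkv6-23 and Igkv8-19, differed by 0.12 and -0.088.

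All 4 lambda light chain probe sets were dim. On 1424931_s_at, annotated to Iglc1 and Iglv1, the WT arrays read 2.42, 2.53 and 2.87 and the IRF4 KO arrays 2.10, 2.15 and 2.25, with no overlap (difference -0.44). The Iglv1 probe set 1430523_s_at read 2.98, 3.04 and 3.08, and 2.56, 2.73 and 2.91, also with no overlap (-0.30), while 1447918_x_at, for the same gene, differed by 0.12. The direction for lambda thus differed between probe sets of 1 gene, at levels below 3.998.

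**Figure D2:**
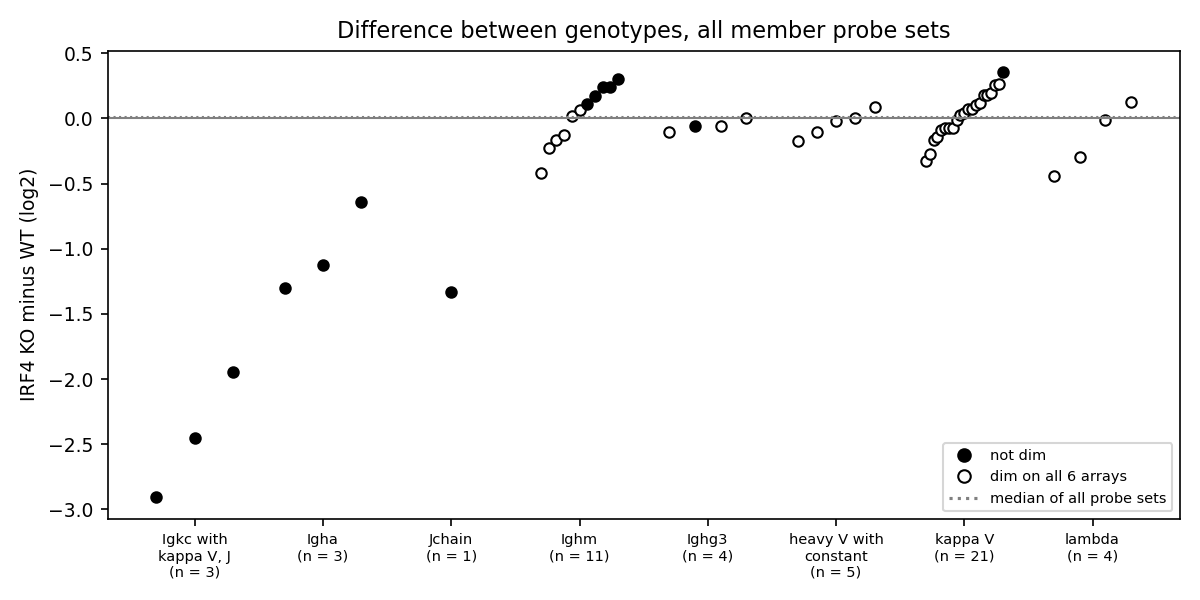
IRF4 KO minus WT difference of means (log2, y axis) of each of the 52 probe sets, grouped by what they are annotated to (x axis, with the number of probe sets); filled points are not dim and open points are dim on all 6 arrays. The Igkc, Igha and Jchain probe sets lie between -2.91 and -0.64, and every other member lies between -0.44 and 0.36.

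Over all 52 probe sets the median difference was -0.037, beside 0.011 over all probe sets, a value set mainly by the 38 dim members. Those 38 read between 1.51 and 3.88 on any array and differed by -0.44 to 0.26. The 14 that were not dim had a median difference of -0.35. Which members were dim was decided on these same values, so this median is no separate support. Jchain was not dim through WT 3 alone, and 1425247_a_at for Ighm through IRF4 KO 3 alone. Probe sets with the ending x_at made up 6 of the 14 and 11 of the 38. Of the 52, 29 were lower and 23 higher in IRF4 KO (47.8% of all probe sets were lower). A mean lower by 1 log2 unit or more was found in 6 of the 52, which are the 3 kappa probe sets, 2 for Igha and Jchain, and in 85 of all 45037 (0.189%). The count follows from how the genes were chosen.

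In the limma fit over all 45037 probe sets, 0 probe sets passed an adjusted p under 0.05 (Benjamini-Hochberg, 0%), members included. The smallest adjusted p was 0.344 over all probe sets and 0.99998 over the 52. At an unadjusted p under 0.05 there were 4 of the 52 (1.74% of all probe sets), the 3 kappa probe sets and 1424931_s_at for lambda. The IRF4 KO arrays lay wholly below the WT arrays in 6 of the 52 (3.24% of all) and wholly above in 1 (2.75%), and 6 of these 7 were dim. On simulated data over the same probe sets, a change of 2 log2 units was called in 43% of cases and a change of 1 unit in 2%. The changed probe sets were drawn from those with a mean above 3.998, which leaves out Jchain (mean 3.26). Over those probe sets the fit thus seldom called a change of 1 unit. As the spread differs between probe sets, the rate for Igha or Jchain itself was not estimated. Whether a lower level in a pooled vessel reflects fewer cells of a type or less RNA per cell cannot be told apart in such tissue.

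A pair of arrays, WT 3 and IRF4 KO 1, differed from the rest, with poly-A spike-in controls (bacterial RNA added before labelling) averaging 4.93 and 5.14 against 7.35 to 9.26. They also read high for the macrophage list (mean level relative to the 6-array mean 1.86 and 3.06, others -1.61 to -0.61) and for the cartilage list (2.74 and 2.82, others -1.57 to -1.11). Each set of arrays holds both genotypes, so the difference was taken within each.

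All 7 kappa, Igha and Jchain probe sets were lower in IRF4 KO within both sets. Between IRF4 KO 1 and WT 3 the differences ran from -3.07 to -1.53, and over the other 4 arrays from -3.01 to -0.20. Of all 52 members, 31 were lower in IRF4 KO 1 than in WT 3 (48.7% of all probe sets) and 27 over the other 4 arrays (47.7%). On 1452417_x_at they were -2.70 and -3.01, on 1427660_x_at -2.88 and -2.23, and on 1427455_x_at -3.07 and -1.39. Over the 4 arrays both IRF4 KO arrays lay below both WT arrays on all 3 kappa probe sets, on Jchain and on 1429381_x_at for Igha. Of the 52 members 11 did so (14.4% of all probe sets), and in 9 both IRF4 KO arrays lay above both WT arrays (15.0%). Of the members 0 passed limma's adjusted p under 0.05 over those 4 arrays (0.0133% of all probe sets), and 4 had an unadjusted p under 0.05 (3.35% of all probe sets).

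WT 3 carried much of the size of these differences. Without it the difference was -1.97 on 1452417_x_at, -1.47 on 1427660_x_at and -0.96 on 1427455_x_at. For Igha it was -0.51, -0.25 and -0.16 on 1421653_a_at, 1425763_x_at and 1429381_x_at, and for Jchain -0.57. Kappa thus still differed by about 1 log2 unit or more without WT 3, whereas the Igha and Jchain differences shrank to between -0.57 and -0.16. Leaving out WT 1 instead widened the difference of 1425763_x_at to -1.86. The macrophage and cartilage levels were high in both WT 3 and IRF4 KO 1. In IRF4 KO 1 the 7 probe sets read lower than in WT 3, while kappa stood 1.17 to 2.90 above the next IRF4 KO array. The part of macrophage and cartilage content in these values was not tested.

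**Figure D3:**
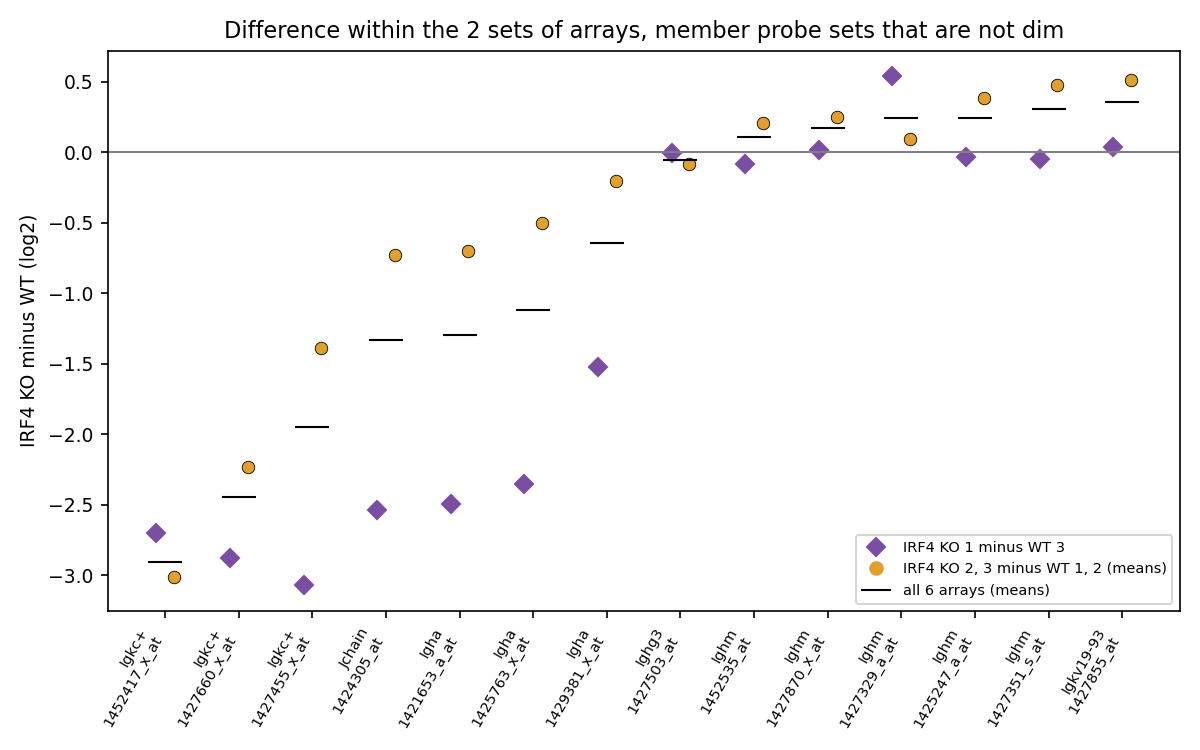
IRF4 KO minus WT difference (log2, y axis) of the 14 probe sets that are not dim (x axis), taken between IRF4 KO 1 and WT 3 (diamonds), over the other 4 arrays (circles) and over all 6 (bars). The 7 kappa, Igha and Jchain probe sets are below 0 in each, down to -3.07, while the Ighm probe sets lie between -0.084 and 0.54.

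The array-by-array pattern was compared between members as the root mean square distance of their log2 values over the 6 arrays, each centred on its own mean. The 3 kappa probe sets were 0.39 to 0.88 apart and the 3 Igha probe sets 0.43 to 0.63. Jchain was 0.22 to 0.50 from the Igha probe sets, closer than some of these were to each other. The Ighm probe set 1427351_s_at was 0.79 to 1.74 from the 7. Distances within the 7 spanned much of the same range, with kappa 0.51 to 1.69 from Igha and Jchain up to 1.26 from kappa. By this measure Ighm was thus not set apart from all of the 7. The mean kappa level relative to its own 6-array mean was 3.16 in WT 3, 0.87 in WT 2, 0.28 in IRF4 KO 1, -0.38 in WT 1, -1.75 in IRF4 KO 3 and -2.18 in IRF4 KO 2.

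Among named genes outside the immunoglobulins, those nearest to the pattern of 1427660_x_at were Pisd-ps3 (distance 0.86), S100a8 (0.94), Scarb1 (0.99), Tspan8, Nfkbie, S100a9 and Mndal (each 1.07) and Hspa8 (1.08). S100a8 and S100a9 encode the calprotectin subunits of neutrophils and monocytes. S100a8 read 3.31, 3.36 and 7.27 in WT and 4.42, 3.09 and 3.27 in IRF4 KO, so it shares the high WT 3 value. Nearest to Jchain were Hsd3b1 (0.33), Ankrd24 and Paip1 (each 0.36), Hmcn1 (0.38), Tbc1d24 and Pisd-ps3 (each 0.39), Hspa8 (0.43) and Chgb (0.46). A gene stands here by its nearest probe set, which need not be its brightest. Pisd-ps3 is 1453144_at for kappa (difference -2.01) and 1434975_x_at for Jchain (-0.92), and Hspa8 is 1431182_at for both. No plasma cell or B cell gene of the lists was among these 14 nearest genes. That absence carries no information, since each of these lists holds only 19 measured genes. The distance is also not scaled, so a gene that varies little, as dim ones mostly do, could not come near.

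Genes that act with antibodies were read from lists. Over the 5 lists of plasma cell, B cell, recombination, class switch and antibody receptor genes, 62 genes were measured, and 0 passed limma's adjusted p under 0.05 in either direction, with 2 at an unadjusted p under 0.05. In the plasma cell list 10 of 19 measured genes had the higher mean in IRF4 KO and 9 in WT (median 0.022), and 5 were dim.

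Xbp1, the regulator of the secretory machinery, had a WT mean of 9.99 ± 0.08 and an IRF4 KO mean of 10.24 ± 0.17 (SD, n = 3), and Txndc5, an endoplasmic reticulum oxidoreductase, 8.77 ± 0.26 and 9.18 ± 0.46. Both genes are also active in many secretory cells. The dim members Tnfrsf17, the plasma cell survival receptor BCMA, and Eaf2, an elongation factor, differed by 0.34 and -0.37. Named after their values were seen, the plasma cell regulator Prdm1 and the B cell coactivator Pou2af1 were dim on all 6 arrays, and Mzb1, a chaperone for IgM, read 4.82 ± 0.21 and 4.70 ± 0.13. Mean levels of the plasma cell list relative to the 6-array mean ran from -0.23 to 0.21 in WT and from -0.19 to 0.32 in IRF4 KO, so the list did not follow the kappa order of arrays. Dim genes such as Prdm1, Tnfrsf17 and Pou2af1 sit near background, and bright ones such as Xbp1 and Txndc5 are not particular to plasma cells. The list mean is thus no measure of plasma cell content.

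In the B cell list the IRF4 KO mean was the higher one for 16 of 19 genes and the lower one for 3 (median 0.15), and 12 were dim, among them Cd79a and Cd79b, which encode the signalling chains of the B cell receptor. Over all probe sets the IRF4 KO mean was lower for 47.8%, and IRF4 KO 3 was the highest array on 28.3%. With most of the list dim, the count is no measure of B cell content. Cd22, an inhibitory receptor of B cells, read 3.72, 3.92 and 3.76 in WT and 4.20, 4.04 and 4.48 in IRF4 KO, without overlap and close to the median level. Cxcr5, the follicle homing receptor (0.36, dim), Ebf1, a factor of B cell identity that other cells of mesenchymal origin also express (-0.38), and Pou2f2, the octamer-binding factor Oct-2 (0.31, dim), had the next smallest p. The list's mean level by array ran from -0.15 to 0.0087 in WT and from -0.072 to 0.14 in IRF4 KO.

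Of the antibody receptor and transport genes, 5 of 11 were higher and 6 lower (median -0.0090). Fcgr2b, the inhibitory receptor for IgG, read 7.46, 7.41 and 7.73 in WT and 7.88, 7.90 and 8.29 in IRF4 KO, with no overlap (difference 0.49). Fcgr1, an activating receptor for IgG, read 5.22 ± 0.22 and 5.52 ± 0.19 (SD, n = 3). Pigr, which carries polymeric IgA across epithelia, was dim on all 6 arrays, as were Fcer1a and Ms4a2, subunits of the mast cell receptor for IgE (differences -0.28 and -0.17). Of the surrogate light chain and recombination genes 4 of 5 were higher, with Dntt (0.32), Rag2 (0.26) and Vpreb1 (0.13) dim and Igll1 at 4.58 ± 0.21 and 4.83 ± 0.22. Of the class switch and fate genes 5 of 8 were lower, with Bcl6, a repressor of plasma cell formation, at 7.89 ± 0.55 and 7.31 ± 0.60 and Irf8, a relative of IRF4, at 4.04 ± 0.36 and 4.49 ± 0.54. Ung, the uracil glycosylase of class switching, was dim (difference -0.27), and Msh6, a mismatch repair factor, differed by -0.22.

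**Figure D4:**
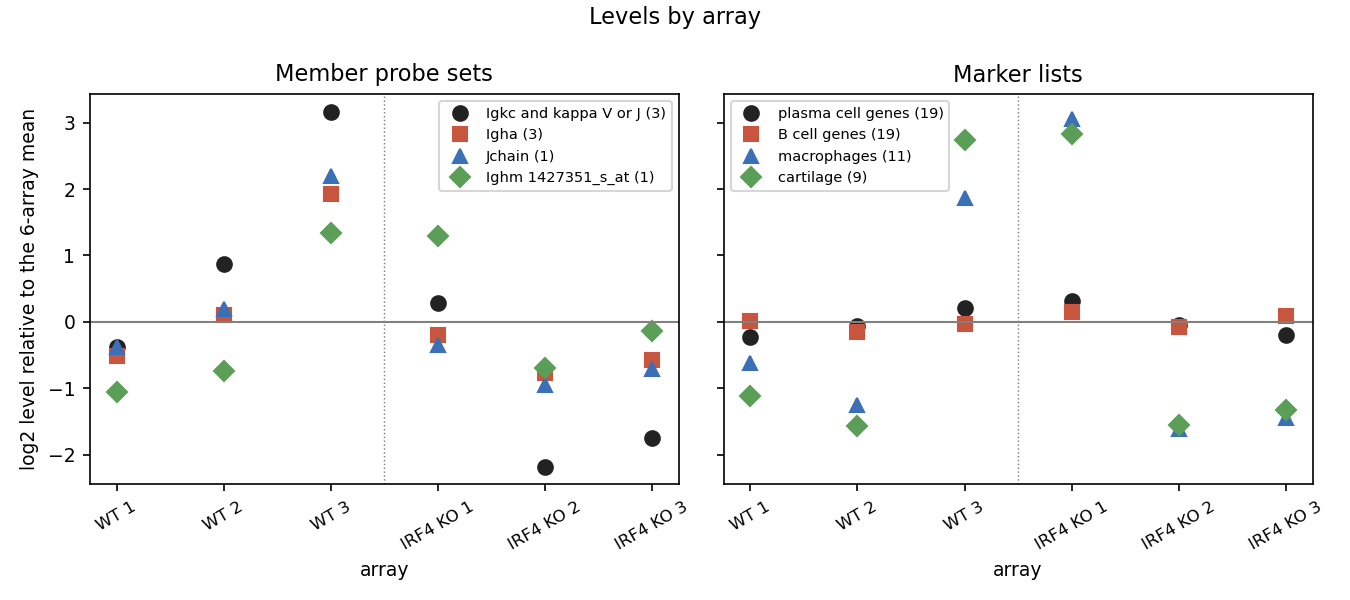
Log2 level relative to the 6-array mean (y axis) on each array (x axis) for the mean of the 3 kappa probe sets, the 3 Igha probe sets, Jchain and 1 Ighm probe set (left), and for the mean of 4 marker lists with the number of genes in brackets (right). Kappa is highest in WT 3 (3.16) and lowest in IRF4 KO 2 (-2.18), while macrophage and cartilage genes are high in both WT 3 and IRF4 KO 1.

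The other tissue lists were read for what else the samples held. All 8 arterial smooth muscle genes were bright, from 8.11 to 13.92 on any array, which fits the label of artery. By mean 4 of the 8 were higher and 4 lower in IRF4 KO, with a median difference of 0.078. Acta2, smooth muscle actin, had means of 12.75 ± 0.12 for WT and 13.89 ± 0.04 for IRF4 KO (SD, n = 3), a difference of 1.14. Tagln, the actin-binding protein transgelin, differed by 1.08 and Smtn, smoothelin of contractile smooth muscle, by 1.09. On these 3 genes every IRF4 KO array lay above every WT array, with a limma adjusted p of 0.344 for each; their part in the kappa, Igha and Jchain differences was not tested. Lymph node genes (7 measured, 4 dim; list level -0.18 to 0.00098 in WT and -0.077 to 0.19 in IRF4 KO) and T cell genes (9 measured, 3 dim; -0.24 to 0.045 and -0.14 to 0.16) did not follow the kappa order. Salivary and thyroid gland genes were dim in 7 of 8 cases (-0.20 to 0.21 and -0.18 to 0.29). The level of the blood and bone marrow list was highest in WT 3 (0.62, other arrays -0.31 to 0.0079), the array with the highest kappa, Igha and Jchain levels. Of its 9 genes 4 were highest in WT 3, among them the myeloid genes S100a8 (7.27, other arrays at most 4.42), S100a9 (6.13, at most 3.97) and Ngp (5.45, at most 5.03). The neutrophil gene Elane (3.63) was lowest in WT 3. So were the red cell genes Hba-a1 (3.15) and Alas2 (2.95), but these were dim on all 6 arrays. In this list 5 of the 9 genes were dim, and WT 3 was the lowest array on 23.6% of all probe sets. The part of blood cells in the immunoglobulin levels was not tested. With limma 0 of the 61 genes of these lists and of the macrophage, cartilage and smooth muscle lists passed an adjusted p under 0.05, and 3, Acta2, Tagln and Smtn, had an unadjusted p under 0.05. The targeted gene did not separate the genotypes, since both Irf4 probe sets were dim (3.64 ± 0.26 and 3.57 ± 0.26 on 1421174_at, 3.28 ± 0.30 and 3.19 ± 0.15 on 1421173_at, WT and IRF4 KO, SD, n = 3).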

How the data were processed

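Total RNA (400 ng per array) of injured arteries was hybridised to 6 Affymetrix mouse arrays, 3 per genotype. The deposited values are log2 intensities per probe set, for which the authors ran RMA in Affymetrix Expression Console, per the submitters' processing notes; the sources used here state no versions. RMA pulls dim probe sets toward background, which understates their differences. Array medians lay between 3.94 and 4.12. The number of arrays limits the precision, and p-values measure the spread between pools.

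Symbols came from the platform annotation; of 34945 single-symbol probe sets, 34741 matched the RefSeq table of GRCm38.p6 by Entrez number and 0 symbols changed. limma 3.58.1 in R 4.3.3 compared IRF4 KO with WT (lmFit and eBayes, two-sided, no covariate), adjusted by Benjamini-Hochberg over the 45037 probe sets; 64 control probe sets were left out. In tests on simulated data it called 0 probe sets when nothing was changed. List genes took their brightest single-symbol probe set.

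The members, lists and naming rule were chosen with earlier results of these data known. The rule named the probe sets of the 4 genes, 10 other bright members, the largest differences, up to 4 list genes by p, and 8 nearest patterns for Igkc and for Jchain. The deviations of same-numbered arrays from their genotype means had correlations of -0.51, 0.31 and -0.59. Since WT 3 and IRF4 KO 1 differed from the rest and carry different numbers, these values cannot show whether the replicate numbers pair arrays. The main fit did not pair them. The alternatives were a replicate block, other normalizations, a filter on dim probe sets, array weights, a robust trend of variance with intensity, fewer arrays, a block for the low spike-in arrays, another threshold and narrower member sets; the gene by gene array weights and the IRF4 KO 1 minus WT 3 difference were added after seeing the data.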

Additional observations from a re-analysis of the deposited data

How the results depend on the processing

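The kappa, Igha and Jchain probe sets, chosen with these values known, were lower in IRF4 KO under every alternative that gave them a value. Those that leave out an array are included. A filter on the mean over 6 arrays (at least 3.998) left Jchain out and gave no value for it. This filter, the replicate and spike-in blocks and the robust trend leave a difference of means unchanged, so its direction could not change. Array weights and fewer arrays could change it. Subtracting array medians could not, as these lay between 3.94 and 4.12, too close to reverse differences of this size. Quantile normalization left little room for it, moving the smallest difference, -0.64 on 1429381_x_at, to -0.59. The Ighm and Igkv19-93 probe sets that were not dim changed direction under at least 1 alternative, except 1427870_x_at. The count of all probe sets called moved from 0 to 69 with array weights, whose default estimate stopped before it converged and gave IRF4 KO 2 a weight of 11.95, to 29 with a gene by gene estimate of the weights and to 6 without WT 3 and IRF4 KO 1. It ran from 0 to 4 when 1 array was left out, the 4 without IRF4 KO 1. Among members, 1 (1452417_x_at) was called with the default weights (limma adjusted p = 0.0429) and 0 under every other alternative; of the pathway list genes, 0 were called under each alternative. With the replicate block, 0 probe sets, members included, were called. The members' median difference was -0.64 over the 11 members that passed that filter on the mean and -0.35 over the 14 that reached that level on at least 1 array, by the construction of those sets, and 0.048 to -0.12 when 1 array was left out.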
